A study of Mus musculus with 2 samples.

Results

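Tubulins and the motors that run on microtubules were compared between the cerebral cortex of mice labelled PS cDKO, a conditional double knockout of presenilin, and that of control mice, all 6 months old per the labels. The genes were taken by name: every probe set that the platform's gene table pairs with exactly 1 symbol starting with Tuba, Tubb, Tubg, Kif, Klc, Dync, Dynl or Dctn. This gave 71 of 12418 probe sets, which stand for 52 of the 8251 genes with a symbol of their own. There was 1 array per genotype, made from total RNA, so the spread between animals is unknown, no test was possible, and every difference is one between 2 arrays. The labels do not state the alleles, the Cre driver, the sex, or whether an array held RNA of a single animal or of a pool. Presenilin forms the catalytic core of the membrane protease γ-secretase. In published descriptions of mice of this name, Psen2 is deleted in all cells and Cre under a Camk2a promoter deletes the other presenilin gene, so that this deletion is confined to excitatory neurons of the postnatal forebrain.

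Microtubules are hollow polymers of α- and β-tubulin dimers, and γ-tubulin complexes start their growth. In neurons they are the tracks of axonal and dendritic transport. Most kinesins carry vesicles, mitochondria and other cargo towards the growing end, which in axons faces the synapse, while cytoplasmic dynein with its cofactor dynactin carries cargo back to the cell body. A separate set of kinesins builds and moves the mitotic spindle and is known mainly from dividing cells. Tubulin isotypes differ mostly in their C-terminal tails, which motors and microtubule-associated proteins read, and their mRNAs are so alike that array probes can pick up several of them.

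The level given for a probe set is its deposited intensity, in array units, first on the control array and then on the PS cDKO array. The fold is PS cDKO over control after the PS cDKO array was scaled by 0.034 on the log2 scale. Signals under a floor of 232 were treated as not measured, and a probe set above the floor on only 1 array has a limit, written "at least". Of the 71 probe sets, 48 were above the floor on both arrays, 4 gave a limit and 19 gave no ratio. Of the 52 genes, 37 were measured on both arrays, 4 had a limit and 11 had no ratio. Genes were counted where the log2 ratio was at least 0.322 in size, with no test, and this size is meant wherever a count of lower or higher genes names 0.322.

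Tubulin and motor genes lay lower in the PS cDKO cortex. Of the 41 genes with a ratio, 29 were lower and 12 higher (70.7% lower, against 48.0% of all 5886 genes with a ratio), and Klc1 is among the lower ones with a log2 ratio that rounds to 0. The median log2 ratio was -0.21, against 0.01 over all genes. Lower by at least 0.322 were 9 of the 41, or 22.0%, where the share over all genes was 8.36%. Higher by at least 0.322 were 3 of the 41, or 7.32%, where the share over all genes was 8.05%, and all 3 were limits from a control signal under the floor. At 1.5-fold the counts were 2 lower and 2 higher, against 0.815% and 1.12% of all genes. At 2-fold they were 0 lower and 1 higher, against 0.102% of all genes in each direction. The 9 lower genes were the tubulins Tuba1a, Tuba4a, Tubb3 and Tubb6, the kinesin Kif5a, the dynein genes Dync1h1 and Dynlrb1, and the dynactin genes Dctn1 and Dctn3.

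**Figure D1:**
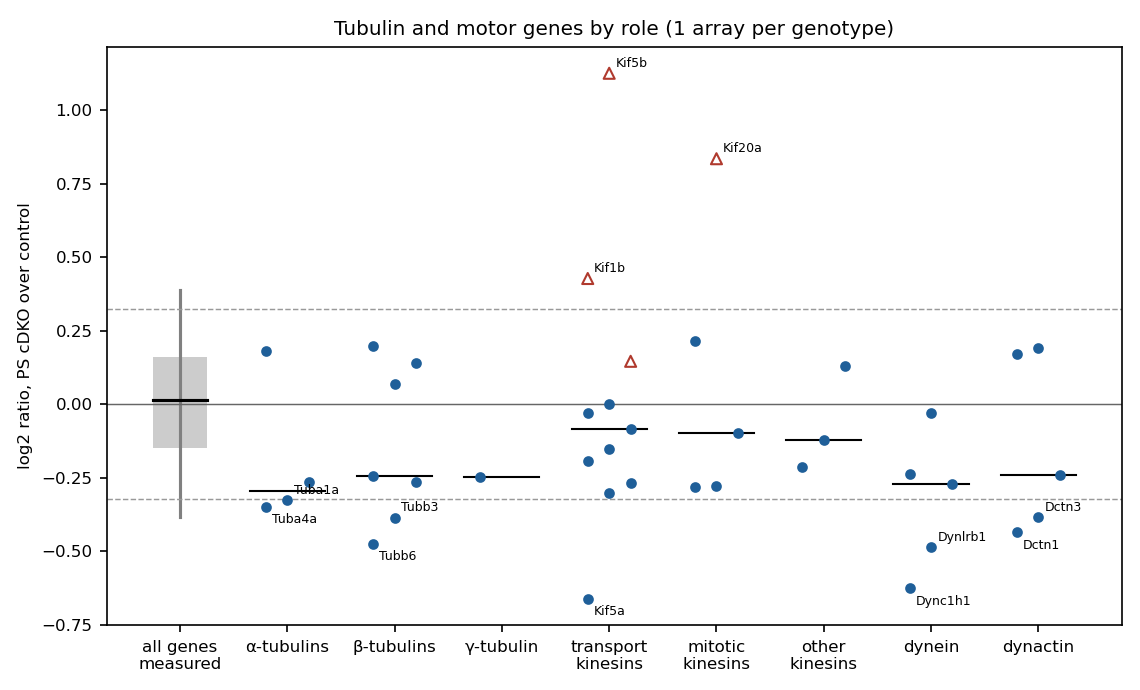
Log2 ratio, PS cDKO over control, of each tubulin and motor gene with a ratio, by role. Dots are genes above the floor on both arrays, open triangles are lower limits, black bars are group medians, dashed lines mark a log2 ratio of 0.322 in size, and the grey column shows all 5886 genes (line, 5th to 95th percentile, and box, quartiles). The lowest genes are Kif5a at -0.66 and Dync1h1 at -0.63, and the highest values, Kif5b and Kif20a, are limits.

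Promoter sequence was set beside these values because the lower genes come from separate families. RefSeq's table for GRCm38.p6 holds windows of 300 bases, from 250 before to 50 after a transcript start, for 41 of the 52 genes, 48 windows in all. The members without a window were Dctn6, Dynll2, Dynlt1b, Kif20a, Kif5a, Kif5b, Kifc2, Kifc3, Tubb2a-ps2, Tubb6 and Tubg1. Kif22, a mitotic kinesin, was also lower, but by less than the size counted (log2 ratio -0.28). The 250 bases before the start are shown for Kif22 and for 3 of the lower genes. For Tubb3 they lie at chr8:123411303-123411552 on the plus strand, for Dync1h1 at chr12:110601145-110601394 on the plus strand, for Dynlrb1 at chr2:155236283-155236532 on the plus strand and for Kif22 at chr7:127042421-127042670 on the minus strand. Dynlrb1 has 2 listed starts and the upstream one is shown. Capitals mark every match, on either strand, to 5 motifs: the GC box GGGCGG, the CCAAT box CCAAT, the TATA box TATAAA, the E-box CACGTG and the cell cycle homology region TTTGAA.
Tubb3: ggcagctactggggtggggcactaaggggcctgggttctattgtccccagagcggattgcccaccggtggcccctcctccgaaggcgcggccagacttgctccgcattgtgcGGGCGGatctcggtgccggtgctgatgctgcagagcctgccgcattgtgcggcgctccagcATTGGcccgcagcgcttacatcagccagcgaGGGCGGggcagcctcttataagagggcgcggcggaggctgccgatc
Dync1h1: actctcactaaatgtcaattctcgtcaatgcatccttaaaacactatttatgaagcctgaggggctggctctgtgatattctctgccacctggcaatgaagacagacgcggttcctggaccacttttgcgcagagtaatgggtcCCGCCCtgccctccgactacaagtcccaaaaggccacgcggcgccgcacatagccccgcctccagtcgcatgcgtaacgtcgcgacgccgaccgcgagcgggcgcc
Dynlrb1: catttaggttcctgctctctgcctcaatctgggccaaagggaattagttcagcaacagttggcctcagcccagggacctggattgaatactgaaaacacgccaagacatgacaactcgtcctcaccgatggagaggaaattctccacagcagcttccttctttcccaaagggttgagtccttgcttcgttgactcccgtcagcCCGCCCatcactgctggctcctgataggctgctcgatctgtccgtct
Kif22: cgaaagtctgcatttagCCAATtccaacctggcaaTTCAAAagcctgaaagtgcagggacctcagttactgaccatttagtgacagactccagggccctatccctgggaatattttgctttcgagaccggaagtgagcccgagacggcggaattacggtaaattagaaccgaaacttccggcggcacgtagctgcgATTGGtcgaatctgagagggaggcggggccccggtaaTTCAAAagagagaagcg
The GC box was found in Tubb3 at 138 and 46 bases before the start, in Dync1h1 at 106 and in Dynlrb1 at 47. Tubb3 also held a CCAAT box at 77. Kif22 held a CCAAT box at 54 and a homology region at 17 bases before the start, and a further copy of each at 233 and 215. None of the 4 stretches held TATAAA or CACGTG.

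Over whole windows, the GC box was present in 29 of 48 windows of tubulin and motor genes, or 60.4%, and in 35.7% of all 32851 windows, which include noncoding genes. The lower genes had 9 windows, which stand for 7 of those genes, since Kif5a and Tubb6 have none. It was present in 6 of these 9 windows, or 66.7%, near the share over all members. The cell cycle homology region separated the mitotic kinesins: all 6 of their windows (Kif2c, Kif4, Kif11, Kif22, Kif23 and Kifc1) held TTTGAA, against 9 of 48 windows of all members and 17.9% of all windows. A CCAAT box accompanied it in 5 of the 6, all but Kif2c, and in 6.95% of all windows. None of the motifs contains another. A match is only a run of letters, with no binding measured here.

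Among the α-tubulins 3 of 4 genes were lower (median log2 ratio -0.30). Tuba1a, the main α-tubulin of developing neurons, gave 5813 and 4241 on 1 probe set, 1.34-fold lower, and 3767 and 3135 on the other, 1.17-fold lower. The gene's log2 ratio was -0.33, just past the size counted. Tuba1c, a widely expressed isotype, gave 4638 and 3773, 1.20-fold lower. Tuba4a, an isotype of mature neurons and muscle, gave 1162 and 892, 1.27-fold lower, and its further probe set was near 0 on both arrays (17.9 and 7.46). Tuba8 went the other way, with 698 and 774, 1.13-fold of the control level. The 3 probe sets named for Tuba1a and Tuba1c were thus all lower in PS cDKO, and Tuba8 alone was higher.

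The β-tubulins divided into 4 lower and 3 higher genes (57.1% lower, near the 48.0% of all genes), with a median log2 ratio of -0.24. Tubb3, the β-tubulin used as a neuronal marker, gave 2408 and 1861 on 1 probe set and 659 and 477 on the other, 1.26-fold and 1.35-fold lower. Its gene value was 1.31-fold lower. Tubb6 gave 2747 and 1931, 1.39-fold lower, the lowest of all tubulins measured. Tubb4a, a brain isotype abundant in oligodendrocytes and neurons, gave 3201 and 2641, 1.18-fold lower. Tubb5, a broadly expressed isotype, was 1.21-fold lower on 1 probe set (2645 and 2144) and 1.20-fold lower on the other (3186 and 2596). Its probe sets differed by less than 0.01 on the log2 scale.

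The higher β-tubulin values came from probe sets of lower signal. Tubb4b, an isotype of many tissues and of cilia, gave 433 and 466, 1.10-fold of control, and the pseudogene Tubb2a-ps2 gave 250 and 280, 1.15-fold. Tubb2a, a major neuronal isotype, had probe sets that disagreed: 2989 and 2458 on the brighter, 1.19-fold lower, and 304 and 388 on the other, 1.30-fold higher. Its gene value of 1.05-fold is the mean of opposite readings.

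Probe set type went with direction among the tubulins. Identifiers with a suffix before _at mark, in this maker's naming, probe sets that had to relax the usual design rules, and _f marks a set whose probes match several members of a family. Of the 10 suffixed α- and β-tubulin probe sets 9 were lower (median log2 ratio -0.27). Of the 5 with plain identifiers and a ratio 2 were lower, Tuba4a and Tubb4a, and the median was 0.14. With plain identifiers alone, the β-tubulin median was 0.14 from Tubb2a-ps2, Tubb4a and Tubb4b, and the α-tubulin median was -0.08 from Tuba4a and Tuba8. The suffixed sets named for Tuba1a, Tuba1c, Tubb2a, Tubb3, Tubb5 and Tubb6 cannot be taken as independent readings of separate isotypes, since such sets may bind each other's transcripts. The plain sets also had lower signals, apart from Tubb4a and Tuba4a, so that suffix and signal cannot be told apart here.

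**Figure D2:**
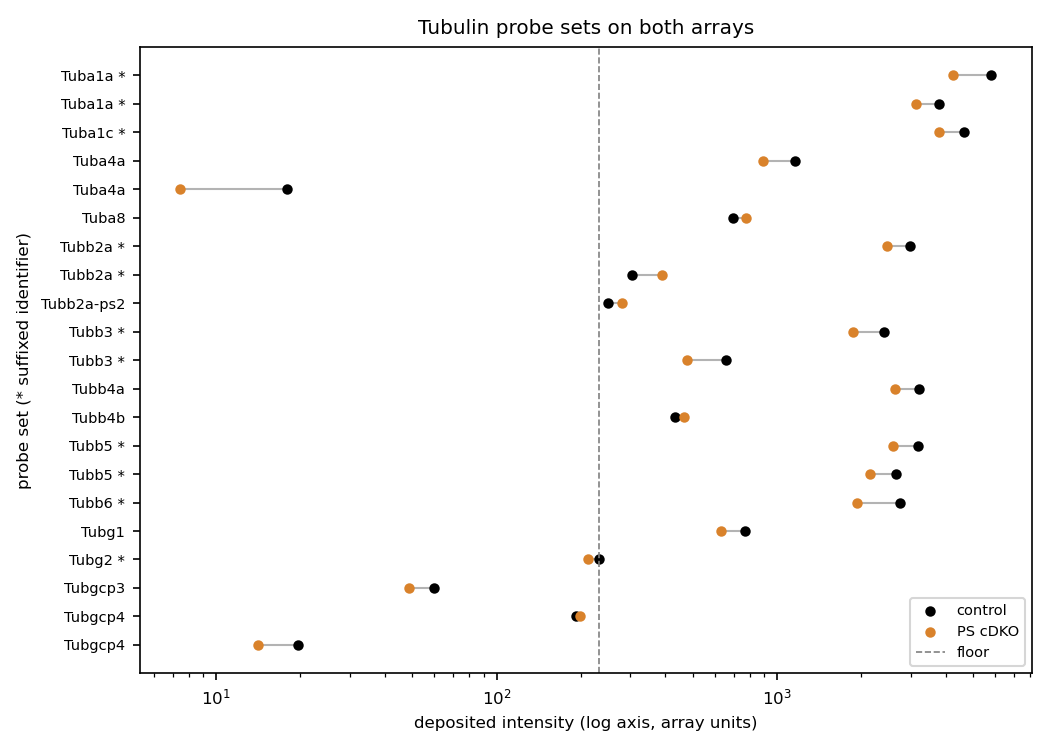
Deposited intensity (log axis, array units) of the 21 tubulin and γ-tubulin complex probe sets on the control (black) and PS cDKO (orange) array, with the floor as a dashed line. An asterisk marks a suffixed identifier. All probe sets with a control signal over 1000 lie lower in PS cDKO, and the sets between 232 and 500 lie higher.

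Of the γ-tubulin genes only Tubg1 was above the floor. It encodes the γ-tubulin that nucleates microtubules, and gave 768 and 632, 1.19-fold lower. Tubg2, its brain-enriched paralog, lay at the floor with 232 and 212, and Tubgcp3 and Tubgcp4, subunits of the γ-tubulin ring complex, lay below it (60.02 and 48.8 for Tubgcp3, and 192 and 198 for the brighter Tubgcp4 set). These 3 genes gave no ratio.

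Among the transport kinesins, the Kif5 heavy chains of conventional kinesin differed from each other. Kif5a, the heavy chain found in neurons, gave 1127 and 627 on 1 probe set, 1.76-fold lower, and 1770 and 1214 on the other, 1.42-fold lower. Its gene value, 1.58-fold lower, was the lowest of all 41 genes, and both of its probe sets are suffixed. Kif5c, also neuronal, gave 346 and 295, 1.14-fold lower. Kif5b, the heavy chain of most tissues including glia, gave 166 and 494, at least 2.18-fold higher. Kif5a was thus lower and Kif5b higher on the same 2 arrays, and Kif5b rests on 1 probe set whose control signal was under the floor. Raising the floor to the 60th percentile lowered its log2 limit from 1.12 to 0.33, and without any floor it was 3.05-fold higher.

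Klc1, the light chain that links kinesin-1 to cargo in neurons, did not follow Kif5a. Its brightest probe set gave 2669 and 2320, 1.12-fold lower, and the others were at 1.08-fold (563 and 594) and 1.04-fold (447 and 455) of control, so that the log2 ratio of the gene rounds to 0. Klc4 was under the floor, with 190 and 209 on the brighter set.

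Kinesin-2, which carries cargo along axons and in cilia, lay lower by small amounts. Kif3c, a neuronal heavy chain, gave 1723 and 1397, 1.21-fold lower, and Kifap3, the accessory subunit that binds cargo, gave 920 and 730, 1.23-fold lower. Kif3a gave 260 and 228, 1.11-fold lower at the edge of the floor, while its further probe set, under the floor on both arrays, read 53.8 and 103. Kif3b gave 656 and 628, 1.02-fold lower. With no floor, the mean of both Kif3a probe sets turned to 1.33-fold higher.

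Kinesin-3 motors carry synaptic vesicle precursors and mitochondria. Kif1a, the neuronal motor for vesicle precursors, gave 994 and 916, 1.06-fold lower. Kif1b gave 172 and 304, at least 1.34-fold higher, and its other probe set was under the floor at 81.5 and 96.5. Kif1c gave 219 and 250, at least 1.11-fold higher. Kif16b, an endosomal motor, was under the floor on both arrays (150 and 141). Of the 11 transport kinesins with a ratio 8 were lower (72.7%, against 48.0% of all genes) and 3 higher. Their median log2 ratio was -0.08. The 3 higher genes, Kif5b, Kif1b and Kif1c, were all limits from control signals between 166 and 219. Among the 8 above the floor on both arrays, the median was -0.17.

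The mitotic kinesins showed no common direction. Kif22, a chromosome arm motor, gave 459 and 369, 1.21-fold lower, and Kif23, needed for cytokinesis, gave 515 and 415, also 1.21-fold lower. Kifc1, a minus-end motor of the spindle, gave 497 and 454, 1.07-fold lower. Kif4, a chromosome motor, gave 347 and 394, 1.16-fold of control. Kif20a, a motor of the central spindle, gave 211 and 404 on a suffixed probe set, at least 1.78-fold higher, whereas its plain probe set was near background at 31.1 and 30.7. Without a floor the mean of both sets was 1.40-fold higher, and raising the floor to the 60th percentile brought the limit down to 1.03-fold. Kif11, the motor that separates spindle poles, and Kif2c, a microtubule depolymerase, were under the floor (75.8 and 81.5, and 156 and 212). The median of the 5 genes with a ratio was -0.10, and it turned to 0.06 when the floor was lowered to the 20th percentile and to 0.14 when it was removed.

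Genes of mitosis and the cell cycle, listed apart from the kinesins, also split. Of 14 with a ratio 8 were higher and 6 lower (42.9% lower, against 48.0% of all genes), with a median of 0.10. Higher by at least 0.322 were 3 (21.4%, against 8.05% of all genes), 1 of them a limit. Lower by that size was 1 (7.14%, against 8.36%). A further 7 of the 21 listed genes, among them Mki67 and Pcna, were under the floor on both arrays. Nusap1, a spindle protein, gave 539 and 689, 1.31-fold higher, Cenpa, the centromeric histone, 660 and 813, 1.26-fold higher, and Cdc20, an activator of the anaphase-promoting complex, 1202 and 1390, 1.18-fold of control. Cdk1, the mitotic kinase, gave 802 and 620, 1.26-fold lower. Prc1, the spindle partner of Kif4 and Kif20a, was at least 1.93-fold higher, from 136 and 437.

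Of the remaining kinesins, Kifc2, a neuronal minus-end motor, had probe sets that opposed each other, with 786 and 510 on the brighter control signal, 1.51-fold lower, and 611 and 668 on the other, 1.12-fold of control. Its gene value was 1.16-fold lower. Kif9, found in cilia, gave 859 and 772, 1.09-fold lower, with a further probe set near background (25.9 and 19.0). Kifc3 gave 496 and 530, 1.09-fold of control. Kif2a, a depolymerase that trims axon branches, lay just under the floor with equal readings of 222 and 223.

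**Figure D3:**
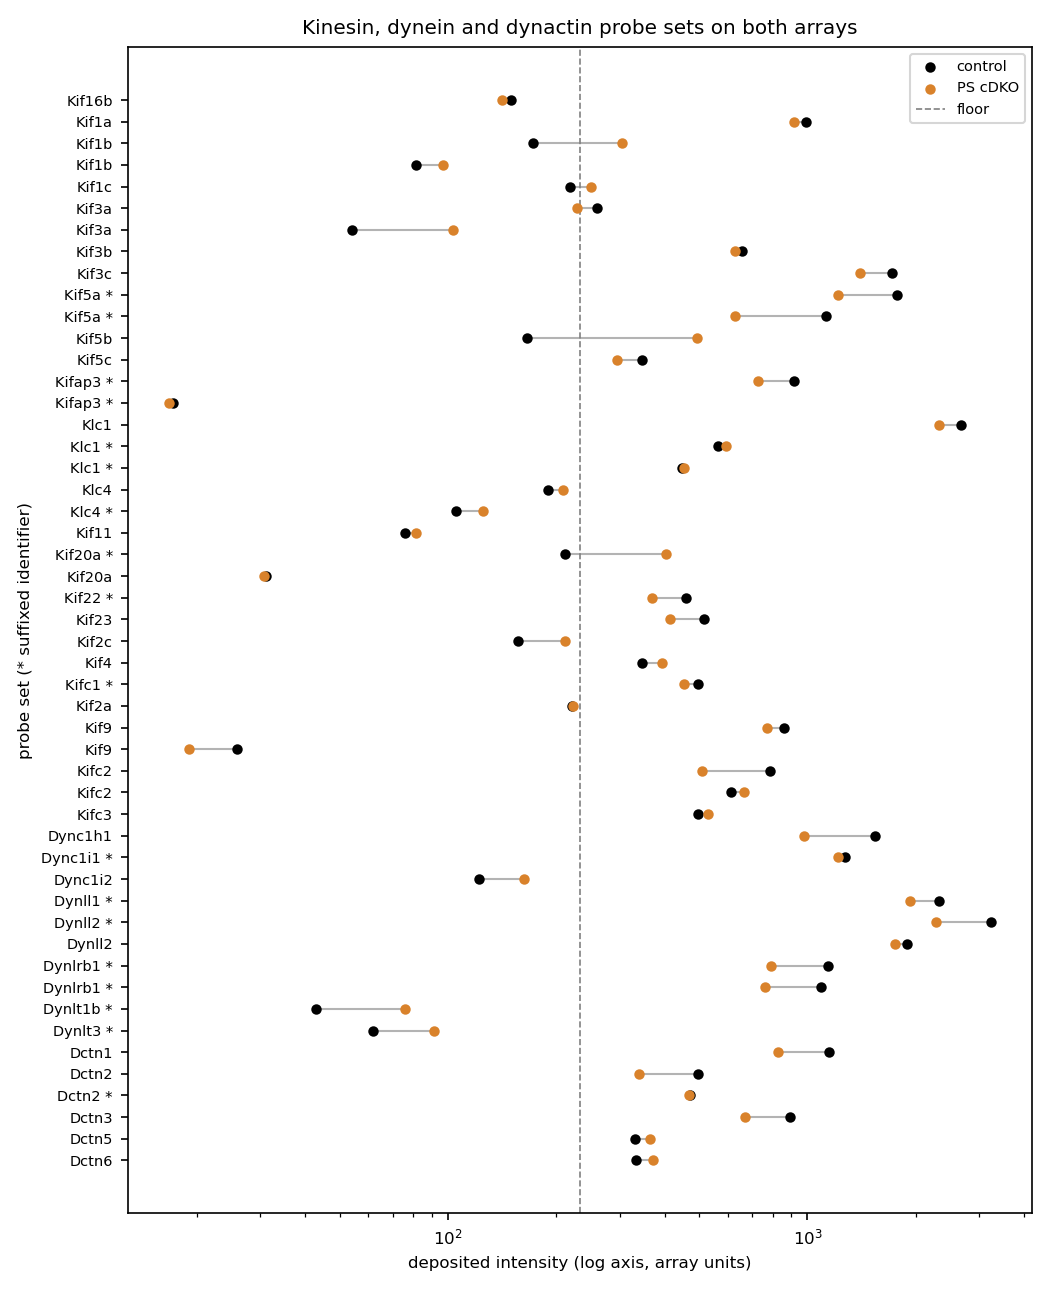
Deposited intensity (log axis, array units) of the 50 kinesin, dynein and dynactin probe sets on the control (black) and PS cDKO (orange) array, with the floor as a dashed line and an asterisk at suffixed identifiers. Kif5a, Dync1h1, Dynlrb1, Dctn1 and Dctn3 lie lower in PS cDKO. Kif5b, Kif1c and the brighter Kif1b and Kif20a sets cross the floor upwards. The brighter Kif3a set crosses it downwards as deposited, but its PS cDKO signal is above the floor after scaling (234).

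In cytoplasmic dynein all genes with a ratio lay lower, 5 of 5, against 48.0% of all genes. Their median log2 ratio was -0.27. Dync1h1, the heavy chain that holds the motor, gave 1545 and 978, 1.54-fold lower, from a single probe set with a plain identifier. Dynlrb1, a roadblock light chain, was 1.41-fold lower on 1 probe set (1142 and 794) and 1.40-fold lower on the other (1091 and 762). Both of these sets are suffixed. Dynll1 and Dynll2, the LC8 light chains, which also bind many proteins outside dynein, followed. Dynll1 gave 2329 and 1930, 1.18-fold lower. Dynll2 gave 3240 and 2275 on the suffixed probe set, 1.39-fold lower, and 1887 and 1757 on the plain one, 1.05-fold lower. Dync1i1, the neuronal intermediate chain that binds dynactin, was at 1271 and 1217, 1.02-fold lower.

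The heavy chain and the neuronal intermediate chain of dynein thus read unlike. Dync1i2, the intermediate chain of most tissues, was under the floor with 122 and 163, as were the light chains Dynlt1b (42.9 and 76.0) and Dynlt3 (61.6 and 91.3). In these 3 genes without a ratio the deposited PS cDKO reading was the higher one. With no floor they entered the dynein median, which moved to -0.13.

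Dynactin, which couples dynein to cargo and extends its runs, lay lower in 3 of 5 genes, with a median log2 ratio of -0.24. Dctn1 encodes p150Glued, the subunit that binds both dynein and microtubules, and gave 1147 and 829, 1.35-fold lower. Dctn3, a subunit of the shoulder, gave 894 and 670, 1.30-fold lower. Dctn2, dynamitin, also of the shoulder, gave 495 and 340 on the plain probe set, 1.42-fold lower, and 472 and 468 on the suffixed one, 1.02-fold of control. Its gene value was 1.18-fold lower. Dctn5 and Dctn6, which cap the pointed end of the dynactin filament, read higher, with 332 and 365 for Dctn5, 1.13-fold, and 333 and 372 for Dctn6, 1.14-fold of control. By gene value, the shoulder and projecting-arm genes lay lower and the pointed-end genes slightly higher, each on 1 or 2 probe sets. The log2 ratios of Dctn5 and Dctn6, 0.17 and 0.19, were smaller than the SD of 0.21 of a single probe set, given below. The suffixed Dctn2 set was at 0.02, so a difference between parts of the complex is not established.

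Without suffixed probe sets, dynein kept 2 genes with a ratio, Dync1h1 (-0.63) and Dynll2 (-0.07), and dynactin kept 5 genes with a median of -0.38. Among all motor probe sets with a ratio, 10 of 14 suffixed and 14 of 22 plain ones were lower, with medians of -0.26 and -0.10. Without suffixed sets 5 of 27 members with a ratio were lower by at least 0.322, against 8.52% of all genes in that setting: Tuba4a, Dync1h1, Dctn1 and Dctn3, which are among the 9, and Dctn2, which is not.

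Partners of tubulin and the motors were described from lists kept apart from the members. Among proteins that fold or modify tubulin, 14 of 16 with a ratio were lower (median log2 ratio -0.20), and 5 (31.2%) were lower by at least 0.322. The shares over all genes were 48.0% lower and 8.36% lower by at least 0.322. Cct6a and Tcp1, subunits of the chaperonin that folds tubulin and actin, were 1.43-fold and 1.41-fold lower. Pfdn5 and Pfdn2, subunits of prefoldin, which hands tubulin to the chaperonin, were 1.42-fold (835 and 573) and 1.30-fold (925 and 696) lower. Cct6a was lower on both probe sets (985 and 701, and 393 and 257). For Tcp1 the value came from a set at 374 and 259, while a further set read 212 and 263, a limit in the other direction.

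Motor adaptors and regulators lay lower in 11 of 14 genes (78.6%, against 48.0% of all genes), with a median of -0.23. Lower by at least 0.322 were 5 (35.7%, against 8.36% of all genes). Lin7b, a scaffold linked to Kif17 cargo, gave 511 and 301, 1.66-fold lower. Mapk8ip1, the JIP1 adaptor of kinesin-1, was 1.28-fold lower. Its plain probe set gave 2521 and 2279, 1.08-fold lower. The suffixed one, of lower signal, gave 526 and 337, 1.52-fold lower. Trak1, which ties mitochondria to kinesin, gave 817 and 630, 1.27-fold lower. Fez1, a kinesin-1 adaptor, gave 1863 and 1447, 1.26-fold lower. Pafah1b1, the dynein regulator LIS1, gave 1813 and 1415, a log2 ratio of -0.324 at the edge of the size counted.

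Microtubule-associated proteins divided nearly evenly, with 12 of 23 lower (52.2%, against 48.0% of all genes) and a median of -0.13. Lower by at least 0.322 were 3 (13.0%, against 8.36% of all genes), so both shares were near those over all genes. Stmn3, a neuronal stathmin that binds tubulin dimers, was 1.31-fold lower, Mapt (tau) 1.29-fold and Map1lc3a 1.27-fold lower. Clip1, which tracks growing ends and recruits dynactin, gave 772 and 991, 1.32-fold higher. For Mapt, probe sets gave 2213 and 1547, 1930 and 1293, and 916 and 853, of which the last was 1.05-fold lower.

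Signal strength went with direction. Over all genes above the floor on both arrays the share lower in PS cDKO was 44.7% below a mean signal of 500, 49.6% from 500 to 1000, 57.3% from 1000 to 2000 and 64.9% above. Their medians were 0.03, 0.0038, -0.03 and -0.09 in that order. The tubulin and motor genes in the same ranges had medians of -0.10, -0.21, -0.31 and -0.27, with 6 of 11, 9 of 11, 7 of 8 and 7 of 7 genes lower. The median of the members was below that of all genes in each range. When a smooth trend of the ratio on signal was removed, the median over the members was -0.13, the α- and β-tubulin medians were -0.15 and -0.12, and 7 of 42 members with a ratio were lower by at least 0.322, against 8.31% of all genes in that setting.

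**Figure D4:**
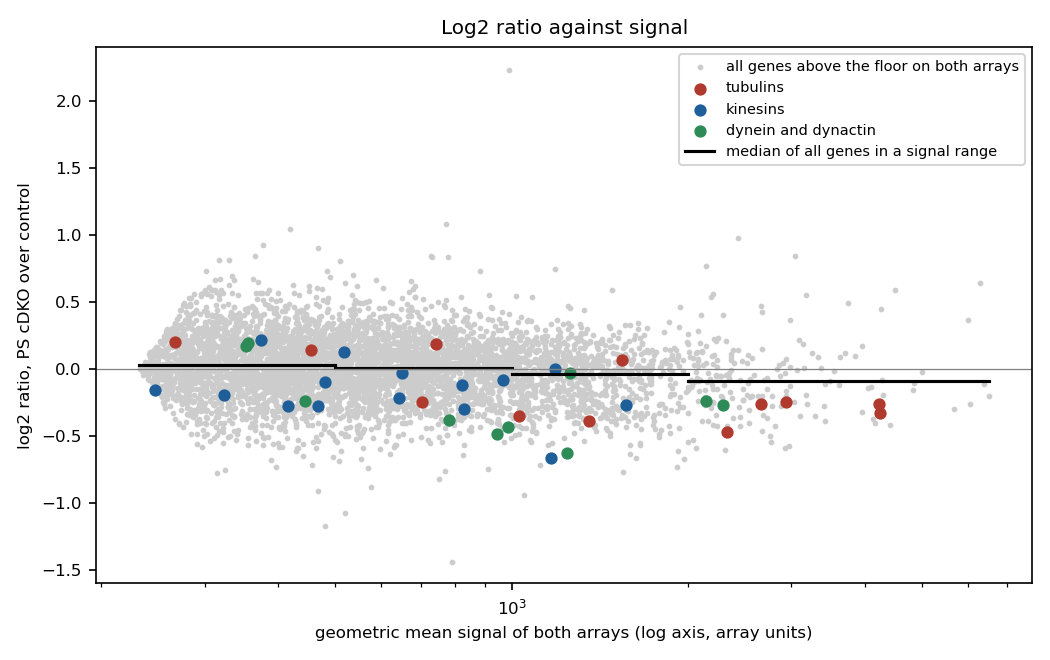
Log2 ratio, PS cDKO over control, against the geometric mean signal of both arrays (log axis, array units). Grey points are all genes above the floor on both arrays, coloured points the tubulin and motor genes, and black bars the median of all genes in 4 signal ranges, which goes from 0.03 in the lowest to -0.09 in the highest.

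Markers of cell types differed in direction from list to list, where 48.0% of all genes with a ratio were lower. All 5 genes with a ratio in the excitatory neuron list were lower (median -0.37), and its summed intensity was 9617 on the control array and 7240 on the other. Snap25, which is not confined to excitatory neurons, gave the median and a large part of that sum (4705 and 3548). The log2 ratios of the rest were -0.57 for Nrgn, -0.51 for Tbr1, -0.14 for Neurod2 and -0.10 for Camk2a. Oligodendrocyte markers were lower in 3 of 4 genes (9481 and 8252 summed) and interneuron markers in 4 of 6 (8053 and 6551 summed). Astrocyte markers were higher in 5 of 6 genes (9764 and 12865 summed) and microglia markers in 8 of 8 (4186 and 6152 summed). Most of the astrocyte rise in summed intensity came from Gfap, with 188 and 1413 on 1 probe set and 458 and 2095 on the other. Among the other astrocyte genes, Gja1 and Aqp4 were 1.46-fold and 1.45-fold of control, Slc1a2 1.15-fold and S100b 1.05-fold, and Glul was 1.08-fold lower. Markers of endothelium were lower in 1 of 3 genes (2087 and 1992 summed), of ependyma and choroid plexus in 1 of 3 (3308 and 2985) and of blood in 2 of 2 (2511 and 1908). Of the 7 excitatory neuron probe sets 1 was under the floor on both arrays, so the labelled tissue's defining markers were present. In whole tissue, fewer cells of a type and less RNA per cell cannot be told apart, and the part of cell makeup in the tubulin and motor values was not tested.

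Repeated probe sets gave the only internal measure of error. Over 749 genes with more than 1 probe set above the floor, the log2 ratio of a probe set had an SD of 0.21, estimated from pairs within a gene. Among the 10 such members it was 0.29, and 6 of the 10 pairs had the same sign, against 57.9% over all genes. The robust SD of the log2 ratio over genes was 0.23. Beyond 2 times that spread lay 4 of the 37 members measured on both arrays, Kif5a, Dync1h1, Dynlrb1 and Tubb6, or 10.8%, against 5.04% of all 5414 such genes. Kif5a, Dynlrb1, Tubb3, Tubb5, Tuba1a and Dynll2 had all their probe sets above the floor lower. All of those sets are suffixed apart from the plain Dynll2 set, at a log2 ratio of -0.07. Suffixed sets of a gene may not be independent readings. Tubb2a, Dctn2, Kifc2 and Klc1 had probe sets on both sides of 0.

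**Figure D5:**
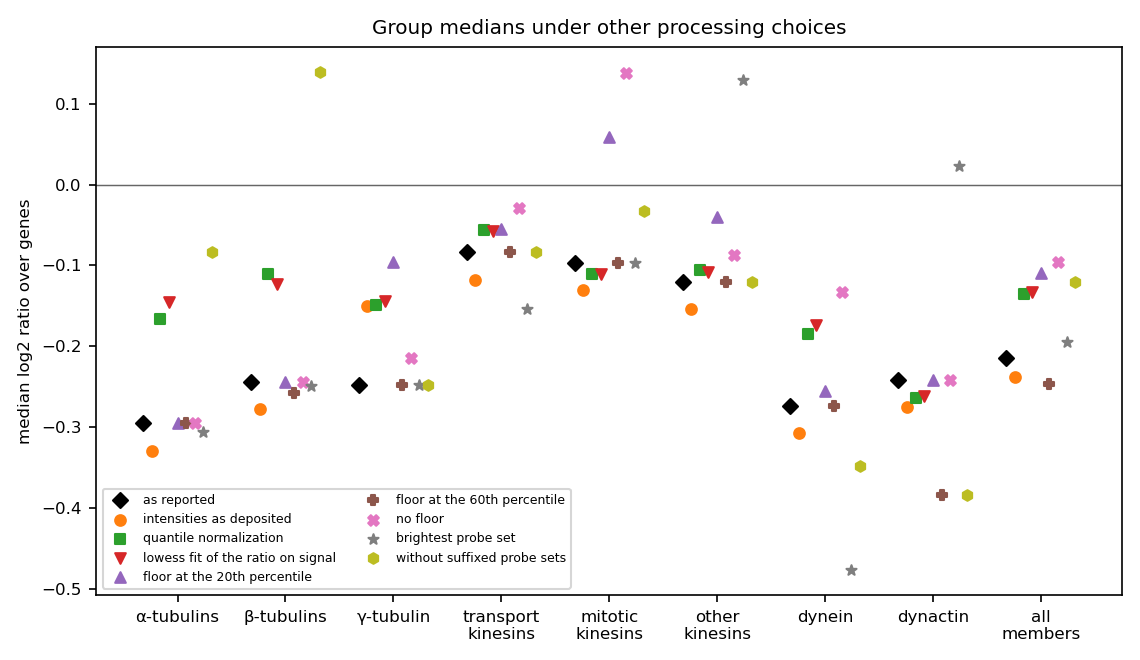
Median log2 ratio over the genes of each role group as reported and under 8 other processing choices, with 0 as the line of no difference. The α-tubulin, γ-tubulin, transport kinesin and dynein medians stay below 0 under every choice, whereas β-tubulins turn to 0.14 without suffixed probe sets, and mitotic kinesins, other kinesins and dynactin each cross 0 under at least 1 choice.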

How the data were processed

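Cortical total RNA of control and of PS cDKO mice was hybridised to 1 array each, and the titles in the labels gave the groups. Values are linear intensity as deposited by the authors, a value for each probe set. Their software, background step, scaling and build are not stated in any label or header. The table holds 13 and 18 negative values, and the medians are 300 and 305. Depth has no meaning for arrays, and their number limits the precision.

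Probe sets were named through the platform's gene table, which can be old: 10829 had 1 symbol, 396 several and 1193 none. All 52 member gene IDs were found, with the same symbol, in a RefSeq table of GRCm38.p6. The PS cDKO array was scaled to a median log2 ratio of 0 over probe sets brighter than the median of each array, and signals under the pooled 40th percentile (232) were set to that floor. A gene's ratio averages the probe sets exceeding the floor in each genotype, or else its limits. This gave 5886 genes, 5414 without a limit.

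The members, lists and alternatives were chosen with earlier results of these data known. Values are given for every member whose log2 ratio is at least 0.322 in size, with a limit or with several probe sets, for the brightest of each role group, and for up to 4 genes per partner list. Pafah1b1 and further members were named after their values were seen. The calculation was tested on simulated data. Python 3.11.15, numpy 2.4.6, pandas 2.3.3, statsmodels 0.14.6 and matplotlib 3.10.9 were used.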

Additional observations from a re-analysis of the deposited data

How the results depend on the processing

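Leaving out an array was not possible with 1 for each genotype. No paired analysis was possible because there was nothing to pair within a genotype. Over all genes the median moved from 0.01 to between -0.02 and 0.04. Of 307 alternative values of single genes, 292 stayed within 1 SD of a probe set, 15 moved further, and no gene with a log2 ratio of at least 0.322 in size changed sign. The causes of the moves below were not tested, apart from the genes or probe sets that a setting removes or adds.

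The median over all members, -0.21, became -0.14 with quantile normalization, -0.13 after lowess, -0.11 with a floor at the 20th percentile, -0.10 with no floor and -0.12 without suffixed probe sets. The α-tubulin median, -0.30, became -0.17, -0.15 and -0.083 with quantile normalization, after lowess and without suffixed sets, and the β-tubulin median, -0.24, became -0.11, -0.12 and 0.14. The transport kinesin median of -0.08 became -0.15 with the brightest probe set. The mitotic kinesin median of -0.10 became 0.059 with the lower floor and 0.14 with none. The median of other kinesins, -0.12, became 0.13 with the brightest probe set. The dynein median of -0.27 became -0.17 after lowess, -0.13 with no floor and -0.48 with the brightest probe set. The dynactin median of -0.24 became 0.023 with the brightest probe set, and -0.38 both without suffixed sets and under the higher floor (60th percentile). Lower by at least 0.322 were 9 of 41 members (8.36% of all genes), and 5 of 27 (8.52%) without suffixed sets. At 1.5-fold and 2-fold 2 and 0 of 41 were lower (0.815% and 0.102%). Higher by at least 0.322 were 3 of 41 (8.05%), 5 of 48 with the lower floor (11.5%), 1 of 34 with the higher floor (5.52%) and 8 of 52 with no floor (16.1%), and 1 of 41 was higher at 2-fold (0.102%).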

Other observations

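Another 5 probe sets carry a tubulin or dynein symbol together with further symbols and were left out by the naming rule. The set shared by Tuba1a, Tuba1b, Tuba1c and Gm5620 gave 4896 in control and 3948 in PS cDKO cortex, 1.21-fold lower. The set shared by Tuba3a and Tuba3b gave 1150 and 908, 1.24-fold lower. The set shared by Dynlt1a and Dynlt1c, copies of a dynein light chain, gave 2070 and 2993, 1.48-fold higher, whereas all 5 dynein genes with a symbol of their own and a ratio were lower. The other two sets were under the floor on both arrays, among them a further Dynlt1 set at 73.6 and 93.3.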
